A study of Mus musculus with 12 samples.

Results

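Among 6 mouse pancreatic ductal adenocarcinoma (PDAC) cell lines, 2 lines, 52419 and 53369, carried little RNA of Cdh1, the gene of the epithelial adhesion protein E-cadherin, and 4 lines, 52205, 52424, 53105 and 53371, carried much of it. The lines were grouped by the Cdh1 level of their own untreated libraries: a line was placed in the Cdh1-low group where that level was under 20 CPM (counts scaled to a library of 1000000 reads). The Cdh1-low group held 2 of the 6 lines and 4 of the 12 libraries. Relative to the Cdh1-high lines, the Cdh1-low lines had lower levels of junction proteins, of several keratins and of foregut transcription factors such as Hnf4a and Gata6, and higher levels of Thbs2, Ddr2 and Fgfr1.

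Every line was represented by 1 parental library, whose genotype label is wild type, and by 1 Cre library, labelled as a JAK1 knockout, made from cells of that line that had received a pBabe-Cre-puro retrovirus and then puromycin at 2, 4 and finally 7 µg/ml. All cells shared 1 growth medium, DMEM with serum and antibiotics, and the labels name no other treatment. Mouse strain, sex, driver alleles and whether a line is 1 clone are not stated in the labels used here. The comparison concerns the state of the lines and not the effect of Cre, so the 2 libraries of a line were averaged and each group was described over lines (n = 2 and n = 4). Each line and condition had 1 library, so every p-value measures the spread between lines only.

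The 12 libraries held 11.48 to 18.04 M reads in genes, and 1 read corresponded to 0.0569 to 0.0896 CPM. Jak1 was at 125 to 207 CPM in the parental and 104 to 234 CPM in the Cre libraries, and a count over a whole gene does not show whether some of its exons are missing. Across genes, the correlation of log2 levels between the parental and the Cre library of a line was 0.967 to 0.991. The 2 Cdh1-low lines correlated with each other at 0.925 and with the Cdh1-high lines at 0.780 to 0.896, while pairs of Cdh1-high lines reached 0.905 to 0.973. Genes at 1 CPM or more numbered 12165 to 12495 in the Cdh1-low and 12536 to 12946 in the Cdh1-high libraries (exact permutation test over the 6 lines, two-sided p = 0.0667, the smallest p that 2 lines against 4 allow).

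E-cadherin joins neighbouring epithelial cells by binding its like on the next cell and is linked through catenins to the actin cytoskeleton. When epithelial cells pass into a mesenchymal state, a process known as the epithelial-mesenchymal transition (EMT), repressors of the Snail, Zeb and Twist families can switch Cdh1 off together with other junction genes, and matrix and motility genes are often raised. In PDAC, tumours that keep a gastric and ductal programme under factors such as GATA6 and HNF4A are called classical, and those that lose it basal-like or quasi-mesenchymal.

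Cdh1 (chr8:106603350-106670247, GRCm38) stood at 0.372 and 0.615 CPM in the parental and the Cre library of line 52419, which correspond to 5 and 8 reads. In line 53369 it stood at 17.5 and 36.4 CPM, so that its parental library was the one just inside the threshold and its Cre library lay above 20 CPM. The nearest library outside the threshold was the parental one of 53105 at 272 CPM. The 8 Cdh1-high libraries ranged from 272 to 805 (median 542) CPM. Cdh1 was thus nearly silent in 1 line and low in the other, with a wide gap to the remaining 4. These values chose the groups and carry no test. All other genes were compared in groups drawn from the same libraries, so their p-values describe how far the 2 sets of lines lie apart relative to the spread between lines.

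**Figure D1:**
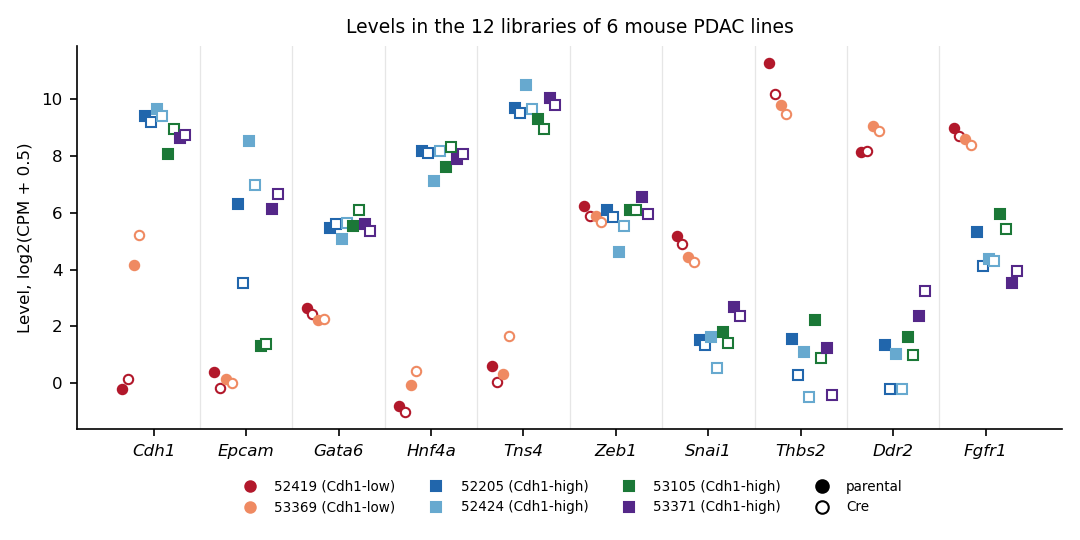
Levels, as log2(CPM + 0.5), of 10 genes in each of the 12 libraries. Circles are the 2 Cdh1-low and squares the 4 Cdh1-high lines; filled symbols are parental and open symbols Cre libraries. Gata6, Hnf4a and Tns4 lie lower and Snai1, Thbs2, Ddr2 and Fgfr1 higher in every Cdh1-low library than in every Cdh1-high one, while Zeb1 overlaps and Epcam in line 53105 lies close to the Cdh1-low lines.

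The 4 further genes examined as candidate markers of the groups behaved differently from one another. In the order used throughout for Cdh1-low libraries (52419 parental, 52419 Cre, 53369 parental, 53369 Cre), Gata6, a zinc finger factor of the foregut and pancreas, was at 5.80, 4.92, 4.21 and 4.29 CPM, against 33.4 to 67.7 (median 47.2) CPM in the Cdh1-high libraries (log2 difference -3.16 ± 0.22 (SE), limma adjusted p = 0.00143). The 2 sets of libraries did not overlap. Thbs2, which encodes the secreted matrix protein thrombospondin 2, was at 2493, 1163, 893 and 719 CPM in the Cdh1-low libraries and at 0.218 to 4.15 (median 1.5) CPM in the others (log2 difference 9.39 ± 0.46 (SE), limma adjusted p = 0.000402). Both Cdh1-low lines were thus strong Thbs2 producers and the 4 remaining lines had a few CPM at most. Zeb1, a repressor of Cdh1, was at 75.3, 59.1, 58.9 and 51.3 CPM against 24.3 to 94.9 (median 64.5) CPM (log2 difference 0.07 ± 0.34 (SE), limma adjusted p = 0.917; 95% interval -0.73 to 0.88), and its levels overlapped. Epcam, an epithelial surface adhesion protein, was at 0.818, 0.384, 0.612 and 0.50 CPM against 1.99 to 366 (median 74.2) CPM (log2 difference -5.01 ± 1.58 (SE), limma adjusted p = 0.101). Although no Cdh1-low library reached a Cdh1-high one, 53105 had Epcam at only 1.99 and 2.14 CPM, and without 53105 the log2 difference was -6.26 with an adjusted p of 0.00772. Gata6 was therefore higher in all 4 Cdh1-high lines, while Epcam was near the Cdh1-low level in 1 of them.

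Of 13394 genes tested, 358 were higher (2.67%) and 822 lower (6.14%) in the Cdh1-low lines at an adjusted p under 0.05; a gene past this threshold is referred to as called. The median log2 difference over all genes tested was 0.0033. A gene was tested where its line mean reached 1 CPM in at least 2 lines. A gene that reached this level in 1 group of lines only entered through the group where it is high, so its direction was set by that choice. This holds for leading genes as well as for list members, and not every such gene is pointed out where its values are given. Among those called higher it includes Crabp1, Sparcl1, Ccl5, Pdpn and Dcn. Among those called lower it includes Lamb3, Tmprss2, Ehf, Grhl3, Cdh17, Cdh10, Foxa1, Lgals4, Vil1, Cdhr2, Cdhr5, Smoc1 and Kdr. The counts and medians of lists that hold such members are given as descriptions. For most of these lists the number of such members and the median over all members in the table are given beside them. Levels of all 4 Cdh1-low libraries lay above all 8 others for 1076 genes (8.03%) and below them for 1656 (12.4%). Left out in turn, single lines changed the number called higher to between 86 (without 53371) and 597 (without 53105) and the number called lower to between 336 (without 53371) and 1143 (without 53105). In all 6 of these fits, 51 of the 358 and 234 of the 822 genes kept their call. Where 52419 or 53369 is left out, the other Cdh1-low line is assumed to vary like the rest. Without 52419, 134 and 343 genes were called, without 52205 the counts were 120 and 418, without 52424 they were 165 and 498, and without 53369 they were 298 and 740.

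**Figure D2:**
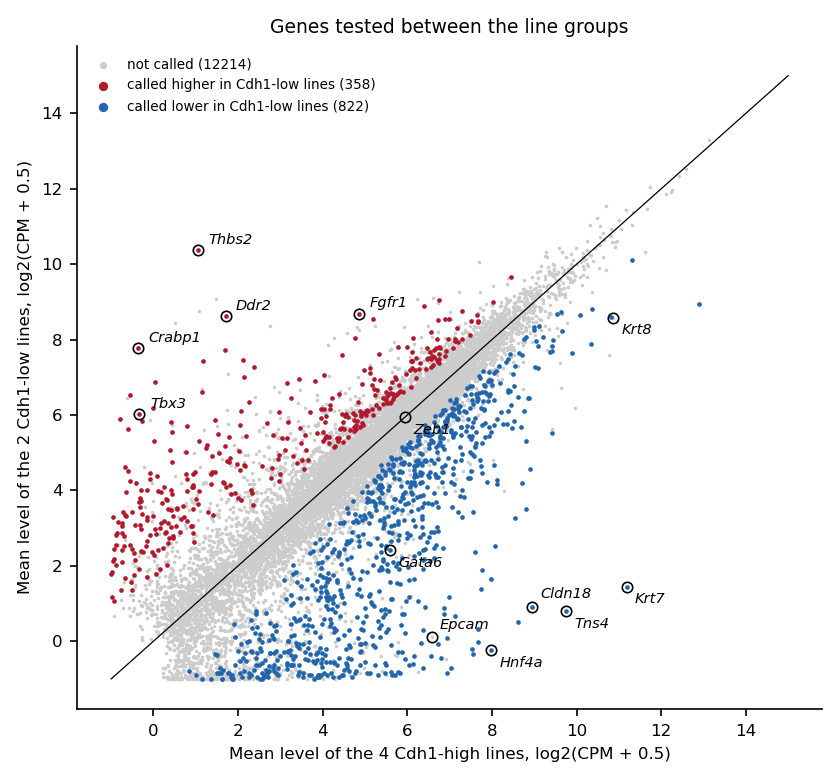
Mean level of each of the 13394 genes tested in the 4 Cdh1-high lines (horizontal) and the 2 Cdh1-low lines (vertical), both as log2(CPM + 0.5), with the line of equal level. Red points are the 358 genes called higher and blue points the 822 called lower in the Cdh1-low lines; ringed genes are named in the text, of which Zeb1, Epcam and Krt8 were not called.

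The 12 genes with the smallest p among those called higher and not overlapping were Thbs2, Tenm3, Apbb1ip, Pcbp4, Tbx3, Irx1, Azin1, Dysf, Crabp1, Tmem119, Tbx18 and Synpo2. Tenm3, a teneurin cell adhesion protein, was at 196, 123, 91.0 and 57.6 CPM in the Cdh1-low and at 0.0727 to 1.58 (median 0.232) CPM in the Cdh1-high libraries (log2 difference 6.89 ± 0.45 (SE), limma adjusted p = 0.00105). Tbx3, a T-box transcription factor, was at 89.4, 74.4, 51.3 and 43.6 CPM against 0 to 0.930 (median 0.0794) CPM (log2 difference 6.41 ± 0.48 (SE), limma adjusted p = 0.00157). Both genes were near 0 in all 4 Cdh1-high lines, 53105 included. Tbx18, another T-box factor, was at 23.5 to 67.4 against 0.455 to 1.65 CPM (log2 difference 5.0 ± 0.44 (SE), limma adjusted p = 0.00243), and Irx1, an Iroquois homeobox factor, at 14.6 to 31.9 against 0 to 0.451 CPM (log2 difference 5.29 ± 0.40 (SE), limma adjusted p = 0.00162). Apbb1ip, an adaptor that links Rap1 to integrin activation, was at 59.7, 51.6, 57.8 and 53 CPM against 0.315 to 2.05 (median 0.554) CPM (log2 difference 5.52 ± 0.37 (SE), limma adjusted p = 0.00107). Its level was almost the same in the 4 Cdh1-low libraries. Azin1, which relieves the inhibition of ornithine decarboxylase, showed a smaller and tight difference, with 383, 353, 373 and 384 CPM against 90.9 to 134 (median 119.7) CPM (log2 difference 1.67 ± 0.14 (SE), limma adjusted p = 0.00195). Dysf, the membrane repair protein dysferlin, had a log2 difference of 3.67 (adjusted p = 0.002), Synpo2, an actin-binding protein, one of 4.45 (adjusted p = 0.00283), Pcbp4 one of 2.28 (adjusted p = 0.00153) and Tmem119 one of 5.15 (adjusted p = 0.00209). Each call named here held whichever 1 line was left out. Log2 differences of genes near 0 in 1 group depend on the 0.5 CPM added before taking logs. Tbx3, Irx1 and Tmem119 passed the filter through the Cdh1-low lines only, so their direction was set by the filter.

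The 12 leading genes among those called lower were Tns4, Hnf4a, Stard10, Krt23, Lsr, Foxq1, Unc13b, Parm1, Fgf1, Cldn18, Samd5 and Gata5. Tns4, a tensin family member of focal adhesions, was at 1.04, 0.538, 0.765 and 2.64 CPM against 499 to 1448 (median 821) CPM in the Cdh1-high libraries (log2 difference -9.02 ± 0.31 (SE), limma adjusted p = 0.000205). Hnf4a, a nuclear receptor of gut, liver and pancreatic epithelium, was at 0.0743, 0, 0.459 and 0.857 CPM against 138 to 322 (median 273) CPM (log2 difference -8.30 ± 0.32 (SE), limma adjusted p = 0.000229). These 2 genes were abundant in all 4 Cdh1-high lines and close to absent in both Cdh1-low lines. Hnf4a, Krt23, Lsr, Fgf1 and Gata5 passed the filter through the Cdh1-high lines only, so their direction was set by the filter. Stard10, a lipid transfer protein, was at 7.28, 5.76, 4.97 and 3.00 CPM against 196 to 368 (median 250.2) CPM (log2 difference -5.57 ± 0.26 (SE), limma adjusted p = 0.000402). Foxq1, a forkhead factor, was at 6.24, 7.22, 6.04 and 7.36 CPM against 54.7 to 117 (median 79.6) CPM (log2 difference -3.50 ± 0.20 (SE), limma adjusted p = 0.000733). Foxq1 had a clear level in the Cdh1-low lines, in contrast to Hnf4a. Unc13b, a vesicle priming protein, differed by -5.25 (adjusted p = 0.000733) on the log2 scale, Parm1 by -4.04 (adjusted p = 0.000733) and Samd5 by -3.62 (adjusted p = 0.000733). Each call named here held whichever 1 line was left out.

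Junction proteins were lower in the Cdh1-low lines as a group. Of 32 members tested (tight junction, adherens junction and desmosome proteins), 23 were called lower and none higher, against 6.14% lower over all genes, and the median log2 difference was -2.82. Among those tested, 12 reached 1 CPM in Cdh1-high lines only. With single lines left out, the number lower ran from 6 (without 52419) to 27 (without 53105), with 15 without 53369, 12 without 52205, 13 without 52424 and 9 without 53371, and 6 members kept the call in every such fit. Lsr, a receptor that builds tricellular tight junctions, was at 0.149, 0.461, 0.382 and 0.857 CPM against 42.7 to 102 (median 86.9) CPM (log2 difference -6.37 ± 0.31 (SE), limma adjusted p = 0.000402). Cgn, the tight junction scaffold cingulin, was at 7.88, 13.1, 7.27 and 7.21 CPM against 42.1 to 111 (median 80.3) CPM (log2 difference -3.08 ± 0.33 (SE), limma adjusted p = 0.00411). Lsr was thus near 0 in both Cdh1-low lines, whereas cingulin was readable in both. Cxadr, the coxsackie and adenovirus receptor of tight junctions, was at 37.8, 61.6, 79.2 and 58.5 CPM against 199.8 to 342 (median 269) CPM (log2 difference -2.25 ± 0.19 (SE), limma adjusted p = 0.00215). In none of these 3 genes did a Cdh1-low library reach a Cdh1-high one. Pkp2, a desmosomal plakophilin, was at 8.40, 14.5, 33.6 and 44.0 CPM against 42.0 to 73.9 (median 50.1) CPM and was not called (log2 difference -1.33 ± 0.46 (SE), limma adjusted p = 0.127). Cldn7, a claudin, was at 0, 0, 0.459 and 0.571 CPM against 1.08 to 226 (median 35.5) CPM and missed the threshold (log2 difference -4.85 ± 1.45 (SE), limma adjusted p = 0.0885). As for Epcam, the Cdh1-high range of Cldn7 began with 53105, at 1.08 and 2.25 CPM. Each call named here held whichever 1 line was left out.

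Keratins, the intermediate filament proteins of epithelial cells, differed from one another: Krt7, Krt23, Krt20 and Krt18 were lower in the Cdh1-low lines, and Krt8 was near 0 in 52419 only. Of 11 tested, 4 were called lower and none higher (median log2 difference -2.28, or -0.49 over all 17 in the table), and the number lower ran from 3 (without 52419, 52205, 52424 or 53371) to 5 (without 53369) when 1 line was left out. Among the tested members, 2 reached 1 CPM in Cdh1-high lines only. Over all genes, 6.14% were called lower and 2.67% higher. Krt7, a keratin of ductal epithelium, was at 1.49, 1.23, 1.38 and 4.79 CPM against 462 to 4733 (median 2214) CPM (log2 difference -9.54 ± 0.76 (SE), limma adjusted p = 0.00184). Krt23 had 3 reads in all 4 Cdh1-low libraries together and was at 71.3 to 201 (median 95.7) CPM in the Cdh1-high ones (log2 difference -7.67 ± 0.37 (SE), limma adjusted p = 0.000402); the ratio of the group levels was 2084, with a 95% counting interval of 713 to 10107. Krt20, a keratin of gastrointestinal epithelium, was at 11.2, 0.845, 0.459 and 0.357 CPM against 22.8 to 417 (median 224) CPM (log2 difference -6.35 ± 1.03 (SE), limma adjusted p = 0.0145). For these 3 genes the groups did not overlap. Krt18 was at 253, 188, 573 and 538 CPM against 1053 to 3256 (median 1711) CPM (log2 difference -2.28 ± 0.46 (SE), limma adjusted p = 0.0311). Its partner Krt8 was at 0.818, 0.538, 776 and 755 CPM against 1140.0 to 3120.1 (median 1744) CPM and was not called (log2 difference -5.90 ± 2.18 (SE), limma adjusted p = 0.146). Krt19 was at 15.5, 19.9, 278 and 458 CPM against 853 to 2768 (median 1501) CPM (log2 difference -4.32 ± 1.05 (SE), limma adjusted p = 0.0512). Line 53369 therefore had Krt8 at a high level where line 52419 had next to none. Leaving out single lines ended Krt20 (adjusted p up to 0.0651) without 53369 and Krt18 (adjusted p up to 0.159) without 52419, 52205, 52424 or 53371.

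Promoters of 3 of the genes named above are shown because they hold the letters CAGGTG, the E-box that Snail and Zeb repressors are known to bind at epithelial genes. Both strands were searched, and a match on the opposite strand reads CACCTG. Each window runs from 250 bases before to 50 bases after the RefSeq transcription start on GRCm38.p6, is written 5′ to 3′ on the strand of the gene, and has the matches in capitals. The Krt23 window is chr11:99493071-99493370 on the minus strand, with 1 match. The Lsr window is chr7:30973420-30973719 on the minus strand, with 4 matches. The Krt7 window is chr15:101412153-101412452 on the plus strand, with 1 match.
Krt23: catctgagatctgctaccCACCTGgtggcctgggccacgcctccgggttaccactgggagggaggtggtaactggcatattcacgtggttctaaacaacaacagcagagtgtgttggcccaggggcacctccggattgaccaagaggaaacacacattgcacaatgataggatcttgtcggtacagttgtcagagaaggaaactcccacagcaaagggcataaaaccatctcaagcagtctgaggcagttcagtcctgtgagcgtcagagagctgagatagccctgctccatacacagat
Lsr: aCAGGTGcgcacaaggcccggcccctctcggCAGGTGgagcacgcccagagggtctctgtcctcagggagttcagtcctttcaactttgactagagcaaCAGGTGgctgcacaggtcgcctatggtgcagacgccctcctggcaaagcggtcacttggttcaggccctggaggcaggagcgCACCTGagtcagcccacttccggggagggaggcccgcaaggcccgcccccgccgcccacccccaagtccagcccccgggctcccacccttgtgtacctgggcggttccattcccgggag
Krt7: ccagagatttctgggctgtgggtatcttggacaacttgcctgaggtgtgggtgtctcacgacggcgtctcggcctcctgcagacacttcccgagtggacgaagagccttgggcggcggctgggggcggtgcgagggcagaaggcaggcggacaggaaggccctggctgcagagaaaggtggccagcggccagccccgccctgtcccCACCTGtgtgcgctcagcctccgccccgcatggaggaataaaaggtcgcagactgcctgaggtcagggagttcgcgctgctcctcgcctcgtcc
The letters were present in 20.2% of all 32851 such windows, in 21.0% of tested genes with a window, in 22.9% of genes called higher and in 34.9% of genes called lower in the Cdh1-low lines. Among members of the epithelial lists they were present in 58.8% of the 51 with a window, and in 67.9% of the 28 of those that were called lower. A match is a description of the letters in the window and does not show that a factor was bound. The window of Cdh1 was not analysed here.

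Regulators that keep epithelial genes and their splicing active were also lower. Of 15 tested, 7 were called lower and none higher, against 6.14% and 2.67% over all genes (median log2 difference -2.78, or -1.72 over all 20 in the table). Of the members tested, 8 reached 1 CPM in Cdh1-high lines only. Leaving out 1 line gave counts from 2 (without 52419) to 9 (without 53105), with 3 without 52205, 4 without 52424 and 3 without 53371, and the number higher was 1 without 53105 and 0 in the others. Rbm47, an RNA-binding protein, was at 3.64, 2.46, 10.0 and 9.21 CPM against 57.7 to 103 (median 77.5) CPM (log2 difference -3.70 ± 0.41 (SE), limma adjusted p = 0.00481). Klf5 was at 15.5 to 27.6 against 54.3 to 118 CPM (log2 difference -1.79 ± 0.28 (SE), limma adjusted p = 0.0133). In both genes no Cdh1-low library overlapped with a Cdh1-high one. Esrp2, a splicing regulator of epithelial exons, was at 1.49, 1.38, 7.57 and 8.14 CPM against 26.8 to 56.7 (median 43.4) CPM (log2 difference -3.33 ± 0.56 (SE), limma adjusted p = 0.0171). Its relative Esrp1 had 2 reads in the Cdh1-low libraries but was at 0.227 and 0 CPM in 53105 as well, and it was not called (log2 difference -3.81 ± 1.61 (SE), limma adjusted p = 0.191). Ehf, an ETS factor, was at 0.0743, 0.0768, 0.153 and 0.286 CPM against 2.43 to 98.0 (median 39.6) CPM (log2 difference -5.28 ± 1.08 (SE), limma adjusted p = 0.031), Tfcp2l1 at 0, 0.307, 5.51 and 6.79 CPM against 13.1 to 46.2 (median 29.4) CPM (log2 difference -3.79 ± 0.87 (SE), limma adjusted p = 0.0434), and Grhl3, with 3 reads in the Cdh1-low group, at 0.569 to 11.8 CPM in the Cdh1-high libraries (log2 difference -2.78 ± 0.64 (SE), limma adjusted p = 0.0441). Grhl2 overlapped, at 0.0768 to 0.786 against 0.359 to 53.6 CPM, as did Klf4 and Ovol1. Tfap2a, a factor of surface ectoderm, was at 63.6, 45.9, 27.9 and 21.8 CPM in the Cdh1-low libraries and at 0.394 to 33.7 (median 2.65) CPM in the others, of which only 53105 exceeded 6 CPM (log2 difference 3.19 ± 1.25 (SE), limma adjusted p = 0.164). Among these calls, leaving out 1 line ended Klf5 (adjusted p up to 0.0781) without 52419; Esrp2 (adjusted p up to 0.055) without 52205 or 53371; Ehf (adjusted p up to 0.15) and Grhl3 (adjusted p up to 0.171) without any 1 line but 53105; Tfcp2l1 (adjusted p up to 0.103) without any 1 line but 53369.

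Membrane proteases and trafficking proteins of polarized epithelium followed, with 9 of 19 tested called lower and none higher, against 6.14% and 2.67% over all genes. The median log2 difference was -3.21, and also -3.21 over all 20 in the table. In the tested set, 9 reached 1 CPM in Cdh1-high lines only. The count lower ran from 4 (without 53371) to 10 (without 53105), with 5 without 52205. Tmprss2, a transmembrane serine protease, was at 0.149, 0.0768, 0.688 and 0.357 CPM against 14.5 to 87.9 (median 55.1) CPM (log2 difference -5.92 ± 0.62 (SE), limma adjusted p = 0.00389). Myo5b, the motor of apical recycling endosomes, was at 4.01, 2.23, 0.229 and 0.214 CPM against 32.8 to 65.2 (median 51.2) CPM (log2 difference -4.94 ± 0.60 (SE), limma adjusted p = 0.00613). Ddr1, an epithelial collagen receptor kinase, was at 70.2, 57.3, 43.2 and 52.1 CPM against 153 to 228 (median 185) CPM (log2 difference -1.74 ± 0.19 (SE), limma adjusted p = 0.00483). Ddr1 was thus readable in both Cdh1-low lines, while the other 2 were at 4.01 CPM or less. Prss22, another serine protease, differed by -4.25 (adjusted p = 0.0105) on the log2 scale. Myo5c was at 2.16, 1.31, 38.7 and 23.5 CPM against 63.0 to 139 CPM and was not called (log2 difference -3.65 ± 0.91 (SE), limma adjusted p = 0.0539). Its level was higher in 53369 than in 52419. In fits without 1 line, the calls lost were Prss22 (adjusted p up to 0.0665) without 52419.

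No other cadherin was called higher where Cdh1 was low. Of 7 tested, 4 were called lower, against 6.14% over all genes (median log2 difference -1.20, or -0.69 over all 14 in the table). Of those tested, 2 reached 1 CPM in Cdh1-high lines only. The number lower ran from 2 (without 52419, 53369, 52205 or 53371) to 4 (without 53105). Cdh17, a cadherin of intestinal epithelium, was at 0.669, 0.384, 0.306 and 1.64 CPM against 58.2 to 622 (median 122) CPM (log2 difference -6.97 ± 0.70 (SE), limma adjusted p = 0.00352). Cdh3, which encodes P-cadherin, was at 0, 0.0768, 1.22 and 1.07 CPM against 5.0 to 76.6 (median 29.3) CPM (log2 difference -4.85 ± 0.73 (SE), limma adjusted p = 0.012). Both were lower in all 4 Cdh1-low libraries than in any other. Cdh10 was at 0 to 0.286 against 0.945 to 27.4 CPM (log2 difference -3.16 ± 0.69 (SE), limma adjusted p = 0.0382) and Cdh13 at 45.7 to 77.0 against 66.2 to 163 CPM, with overlap (log2 difference -0.80 ± 0.17 (SE), limma adjusted p = 0.0335). Cdh2, which encodes the N-cadherin of mesenchymal and neural cells, was at 282, 279, 79.5 and 127 CPM against 47.6 to 170.0 (median 111) CPM (log2 difference 0.69 ± 0.52 (SE), limma adjusted p = 0.445). The high Cdh2 level was a feature of 52419, and 53369 lay inside the Cdh1-high range. Cdh6 overlapped (1.45 to 18.5 against 10.9 to 19.9 CPM), and Cdh11 was under 2 CPM in every library. With 1 line omitted, the threshold was no longer passed by Cdh3 (adjusted p up to 0.0737) without 52419, Cdh10 (adjusted p up to 0.17) without 52419, 53369, 52205 or 53371 and Cdh13 (adjusted p up to 0.108) without any 1 line but 53105.

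Cdh3 lies beside Cdh1 on the same chromosome (chr8:106510852-106556911). Of the 8 protein-coding genes of the table nearest to Cdh1, 4 on each side, Cdh3 and Smpd3, a sphingomyelinase, were called lower and none higher. Over all genes tested, 6.14% were called lower and 2.67% higher. Smpd3 was at 0.446, 1.31, 8.41 and 16.2 CPM against 22.6 to 131 (median 54.7) CPM (log2 difference -3.86 ± 0.89 (SE), limma adjusted p = 0.0444). The other 6 were not called: Tango6 had a log2 difference of 0.36 (adjusted p = 0.514), Utp4 one of 0.71 (adjusted p = 0.145), Chtf8 one of 0.17 (adjusted p = 0.711), Prmt7 one of 0.23 (adjusted p = 0.603), Zfp90 one of -0.31 (adjusted p = 0.472) and Has3 one of -1.71 (adjusted p = 0.11). Levels of all 6 overlapped between the groups. Omitting 1 line at a time ended Smpd3 (adjusted p up to 0.15) without any 1 line but 53369.

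Hemidesmosome components and the integrins of epithelial attachment were lower for 6 of 13 tested members, with none called higher (median log2 difference -1.58). Over all genes, 6.14% were called lower and 2.67% higher. Among those tested, 2 reached 1 CPM in Cdh1-high lines only. The count lower ran from 3 (without 52419) to 8 (without 53105), and that of members higher was 1 without 53105 and 0 in the others. Itga2, the collagen-binding integrin alpha 2, was at 3.86, 1.77, 0.765 and 2.14 CPM against 75.8 to 325 (median 227) CPM (log2 difference -6.31 ± 0.54 (SE), limma adjusted p = 0.00209). Lamb3, a chain of laminin 332, was at 0.149, 0.384, 0.382 and 0.143 CPM against 19.1 to 159 (median 106) CPM (log2 difference -6.60 ± 0.76 (SE), limma adjusted p = 0.00517). Itgb4, the hemidesmosomal integrin beta 4, was at 20.4, 6.69, 11.9 and 5.79 CPM against 45.4 to 295 (median 112) CPM (log2 difference -3.45 ± 0.47 (SE), limma adjusted p = 0.00899). These 3 genes separated the groups completely. Itga3 was at 348 to 614 against 1009 to 1492 CPM (log2 difference -1.57 ± 0.22 (SE), limma adjusted p = 0.00932). The linker proteins Plec and Dst were not called, at 807 to 1213 against 365 to 869 CPM (log2 difference 0.86 ± 0.31 (SE), limma adjusted p = 0.144) and 403 to 549.7 against 346 to 574 CPM (log2 difference 0.05 ± 0.23 (SE), limma adjusted p = 0.912). Not every call survived the omission of 1 line, which ended Itga3 (adjusted p up to 0.0574) without 52419.

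**Figure D3:**
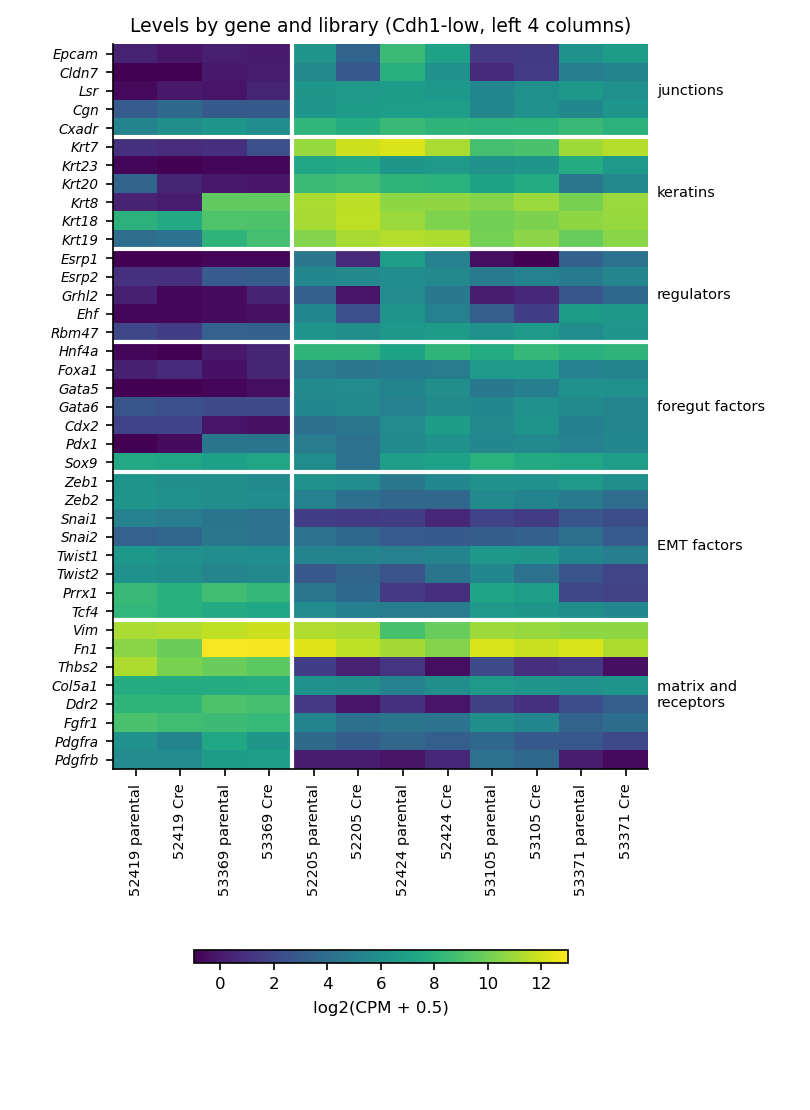
Levels of 39 genes in the 12 libraries, as log2(CPM + 0.5) on a scale from -1 to 13; the 4 columns left of the white line are the Cdh1-low libraries. Lsr, Krt7, Krt23, Hnf4a, Foxa1 and Gata5 are dark in both Cdh1-low lines; Krt8 and Pdx1 are dark in 52419 only; Epcam, Cldn7, Esrp1 and Grhl2 are dark in 53105 too, where Prrx1 and Pdgfrb are brighter than in the other Cdh1-high lines.

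Among transcription factors linked to EMT, Snai1, Tcf4 and Foxc2 were higher in the Cdh1-low lines, and Zeb1, Twist1 and Snai2 overlapped. Of 19 tested, 3 were called higher and none lower, against 2.67% higher over all genes, and the median log2 difference was 0.74, or 0.64 over all 20 in the table. Among the tested members, 1 reached 1 CPM in Cdh1-high lines only and 1 reached 1 CPM in Cdh1-low lines only. Single lines moved that count from 0 (without 52419) to 8 (without 53105), with 1 without 52205 and 1 without 53371, members called lower numbered 1 without 53369 and 1 without 53105 and 0 in the others, and no member kept its call in all 6 fits. Snai1, the Snail repressor of Cdh1, was at 36.1, 29.2, 21.1 and 18.9 CPM against 0.945 to 5.99 (median 2.49) CPM (log2 difference 3.03 ± 0.46 (SE), limma adjusted p = 0.0126). Tcf4, the E-protein E2-2, was at 312, 235, 187 and 158 CPM against 29.4 to 96.5 (median 49.9) CPM (log2 difference 2.12 ± 0.43 (SE), limma adjusted p = 0.0315). Foxc2, a forkhead factor of mesenchyme, was at 7.51, 8.99, 1.76 and 5.0 CPM against 0.0727 to 1.25 (median 0.360) CPM (log2 difference 2.72 ± 0.53 (SE), limma adjusted p = 0.0273). All 4 Cdh1-low libraries exceeded all others for these 3 genes. Foxc2 passed the filter through the Cdh1-low lines only, so its direction was set by the filter. Prrx1, a homeobox factor of mesenchyme, had a larger estimate but a wide spread, with 340.3, 238, 424 and 322 CPM against 1.45 to 142 (median 8.32) CPM (log2 difference 4.82 ± 1.5 (SE), limma adjusted p = 0.0981). Its Cdh1-high range was set by 53105 at 142 and 109 CPM, and without that line the log2 difference was 5.97 with an adjusted p of 0.0114. Zeb2 was at 77.6, 64.0, 59.4 and 57.6 CPM against 11.6 to 50.7 (median 22.2) CPM (log2 difference 1.49 ± 0.47 (SE), limma adjusted p = 0.103), and Twist2 at 68.9, 62.5, 40.2 and 47.3 CPM against 3.30 to 43.4 (median 8.91) CPM (log2 difference 2.30 ± 0.65 (SE), limma adjusted p = 0.0762). The parental library of 53105 was the highest Cdh1-high library for both genes. Twist1, Snai2 and Zeb1 had log2 differences of 0.53 (adjusted p = 0.432), 0.50 (adjusted p = 0.454) and 0.07 (adjusted p = 0.917). Sox4 was at 96.5 to 151 against 158 to 523 CPM, below every Cdh1-high library without being called (log2 difference -1.17 ± 0.39 (SE), limma adjusted p = 0.12). Leaving out single lines ended Snai1 (adjusted p up to 0.0843) without 52419, Tcf4 (adjusted p up to 0.172) without 52419, 53369, 52205 or 53371 and Foxc2 (adjusted p up to 0.144) without 52419, 52205, 52424 or 53371.

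Mesenchymal cytoskeleton and matrix genes were mostly present in both groups. Of 24 tested, 2 were called higher and 1 lower, against 2.67% and 6.14% over all genes, with 19 estimates above 0 (median 0.91, or 0.84 over all 26 in the table). The count higher ran from 0 (without 52419 or 53371) to 3 (without 53105), with 1 without 53369 and 1 without 52205, and the count lower from 0 (without 52419) to 2 (without 53369). Vim, the intermediate filament vimentin, was at 2353, 2608, 3238 and 3816 CPM against 492 to 2548 (median 1709) CPM (log2 difference 1.00 ± 0.53 (SE), limma adjusted p = 0.281). Fn1, fibronectin, was at 1434, 942, 7390.3 and 7119 CPM against 1334 to 5145 (median 3418) CPM (log2 difference -0.12 ± 0.74 (SE), limma adjusted p = 0.942). Vimentin and fibronectin were thus abundant in the Cdh1-high lines too, and the lowest Fn1 value was in the 52419 Cre library. Cav1, the coat protein of caveolae, was at 491, 595, 327 and 327 CPM against 110.2 to 233 (median 126) CPM (log2 difference 1.49 ± 0.34 (SE), limma adjusted p = 0.0417), and Serpine2, a protease inhibitor, at 14, 7.45, 38.4 and 28.0 CPM against 0.436 to 5.56 (median 1.80) CPM (log2 difference 3.12 ± 0.68 (SE), limma adjusted p = 0.0378). Mylk, myosin light chain kinase, was lower, at 7.43 to 10.3 against 26.9 to 77.1 CPM (log2 difference -2.22 ± 0.33 (SE), limma adjusted p = 0.0111). S100a4 was at 471, 552, 1671 and 1578 CPM against 57.6 to 344 (median 226) CPM and just missed the threshold (log2 difference 2.35 ± 0.58 (SE), limma adjusted p = 0.0519). Axl, a receptor kinase often raised in mesenchymal tumour cells, was at 1025 to 1858 against 505 to 966 CPM (log2 difference 0.82 ± 0.31 (SE), limma adjusted p = 0.153), without overlap. Among these calls, leaving out 1 line ended Cav1 (adjusted p up to 0.205) without any 1 line but 52205, Serpine2 (adjusted p up to 0.143) without any 1 line but 53105 and Mylk (adjusted p up to 0.0646) without 52419.

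Collagens were called in both directions. Of 23 tested, 4 were higher and 3 lower, against 2.67% and 6.14% over all genes. Estimates above 0 numbered 18 (median 1.58, or 0.60 over all 37 in the table). Of the members tested, 3 reached 1 CPM in Cdh1-high lines only and 1 reached 1 CPM in Cdh1-low lines only. Leaving out 1 line changed the number higher from 1 (without 53369, 52205 or 53371) to 6 (without 53105) and the number lower from 0 (without 52419 or 53371) to 3 (without 53105), with 1 without 52205. Col5a1, a chain of fibril-regulating collagen V, was at 206, 193, 198 and 210.1 CPM against 37.0 to 95.9 (median 70.8) CPM (log2 difference 1.58 ± 0.25 (SE), limma adjusted p = 0.0132). Col16a1 was at 114, 95.4, 132 and 115 CPM against 1.29 to 18.0 (median 8.67) CPM (log2 difference 4.00 ± 0.71 (SE), limma adjusted p = 0.0197). Both were even across the Cdh1-low libraries. Col4a3 and Col27a1 were lower, at log2 differences of -2.21 (adjusted p = 0.0127) and -2.71 (adjusted p = 0.0155). The fibrillar collagens Col1a2 and Col3a1 were high in 53369 alone: Col1a2 was at 0.818, 1.92, 831 and 553 CPM against 0 to 5.22 CPM (log2 difference 5.32 ± 2.16 (SE), limma adjusted p = 0.177), and Col3a1 at 33.9, 15.9, 843 and 413 CPM against 0 to 34.2 CPM (log2 difference 6.03 ± 1.76 (SE), limma adjusted p = 0.0838). Col4a1, of basement membranes, was at 848 to 1128 against 466 to 939 CPM (log2 difference 0.54 ± 0.24 (SE), limma adjusted p = 0.216). In fits without 1 line, the calls lost were Col5a1 (adjusted p up to 0.0699) without 52419 or 53369; Col16a1 (adjusted p up to 0.101) without 52419, 53369, 52205 or 53371; Col4a3 (adjusted p up to 0.0597) without 52419, 52205 or 53371; Col27a1 (adjusted p up to 0.0651) without 52419, 53369 or 53371.

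Thbs2 was called higher in the Cdh1-low lines, while its relative Thbs1 was not called. Of 21 matricellular proteins tested, 3 were called higher and 1 lower, against 2.67% and 6.14% over all genes (median 0.43, or 0.67 over all 24 in the table). The share lower was near that over all genes. In the tested set, 2 reached 1 CPM in Cdh1-high lines only and 1 reached 1 CPM in Cdh1-low lines only. The number higher ran from 1 (without 52205, 52424 or 53371) to 4 (without 53105), and the number lower from 0 (without 52419) to 2 (without 53105). Thbs1, thrombospondin 1, was at 1765, 2203, 1098 and 1207 CPM against 413 to 1896 (median 1195) CPM and overlapped (log2 difference 0.43 ± 0.44 (SE), limma adjusted p = 0.583). Tgfbi, a collagen-binding protein, was at 84.1, 18.3, 42.6 and 23.5 CPM against 0.344 to 9.61 (median 1.58) CPM (log2 difference 3.92 ± 0.83 (SE), limma adjusted p = 0.0355). Sparcl1 had 1 read in the 8 Cdh1-high libraries together and stood at 0.845 to 2.68 CPM in the Cdh1-low ones (log2 difference 2.10 ± 0.41 (SE), limma adjusted p = 0.0271); the ratio was 193, with a counting interval of 33.8 to 7705. Smoc1 was lower, with 3 reads in the Cdh1-low group (log2 difference -3.06 ± 0.49 (SE), limma adjusted p = 0.0145). Ccn2, which encodes connective tissue growth factor, was at 16.5, 61.2, 144 and 195 CPM against 267 to 1744 (median 714) CPM (log2 difference -3.13 ± 0.82 (SE), limma adjusted p = 0.0628), with no overlap but not called. Spp1, osteopontin, was abundant in both groups (3861 to 17614 against 4319 to 20514 CPM; log2 difference 0.14 ± 0.59 (SE), limma adjusted p = 0.911). With 1 line omitted, the threshold was no longer passed by Tgfbi (adjusted p up to 0.167) and Sparcl1 (adjusted p up to 0.0912) without any 1 line but 53105 and Smoc1 (adjusted p up to 0.0701) without 52419 or 53369.

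Among matrix proteases and their inhibitors, 4 of 28 tested were called higher and 2 lower, against 2.67% and 6.14% over all genes (median -0.03, or -0.02 over all 33 in the table; 0.33 in parental and 0.22 in Cre libraries alone). The share lower was near that over all genes. Of those tested, 2 reached 1 CPM in Cdh1-high lines only and 2 reached 1 CPM in Cdh1-low lines only. The number higher ran from 1 (without 52419) to 5 (without 53105), with 2 without 52205 and 2 without 53371, and the number lower from 1 (without 52419 or 52205) to 4 (without 53105). Adamts2, the procollagen N-proteinase, was at 15, 6.38, 9.56 and 8.43 CPM against 0 to 1.08 (median 0.0842) CPM (log2 difference 3.74 ± 0.48 (SE), limma adjusted p = 0.00739). Timp1, an inhibitor of metalloproteinases, was at 218, 151, 113 and 99.5 CPM against 19.5 to 55.3 (median 27.9) CPM (log2 difference 2.22 ± 0.32 (SE), limma adjusted p = 0.011), and Adamts4, an aggrecanase, at 7.21 to 37.1 against 0.896 to 3.64 CPM (log2 difference 2.95 ± 0.52 (SE), limma adjusted p = 0.0193). None of the 3 overlapped. Mmp15, a membrane-bound metalloproteinase, was lower, at 0.149, 0.0768, 1.38 and 3.57 CPM against 10.7 to 89.8 (median 28.4) CPM (log2 difference -4.78 ± 0.78 (SE), limma adjusted p = 0.015), while its relative Mmp14 overlapped at 143 to 214 against 110.4 to 280.0 CPM (log2 difference -0.07 ± 0.31 (SE), limma adjusted p = 0.911). Omitting 1 line at a time ended Timp1 (adjusted p up to 0.0657) and Mmp15 (adjusted p up to 0.0807) without 52419 and Adamts4 (adjusted p up to 0.0811) without 52419, 52205 or 53371.

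Transcription factors of the foregut and pancreas were lower in 8 of 17 tested members and higher in 1, and 6 of the 8 kept the call in all fits without 1 line. The median log2 difference was -3.16, or -1.51 over all 26 in the table, and it was -3.33 over those tested with the 2 genes that had no read in the Cdh1-low group set at the bound that 3 reads per library allow. Among those tested, 7 reached 1 CPM in Cdh1-high lines only and 1 reached 1 CPM in Cdh1-low lines only. Over all genes, 6.14% were called lower and 2.67% higher. Calls lower ran from 6 (without 52419, 52205 or 53371) to 10 (without 53369), and the number higher from 0 (without 52205 or 53371) to 1 (without 52419, 53369, 52424 or 53105). Hnf4a and Gata6 are given above. Gata5, a relative of Gata6, was at 0, 0, 0.0765 and 0.214 CPM against 24.7 to 66.6 (median 50.9) CPM (log2 difference -6.36 ± 0.38 (SE), limma adjusted p = 0.000733). Foxa1, a pioneer factor of endodermal epithelium, was at 0.669, 1.08, 0.306 and 0.929 CPM against 23.2 to 94.8 (median 33.3) CPM (log2 difference -5.07 ± 0.53 (SE), limma adjusted p = 0.00389). Cdx2, an intestinal homeobox factor, was at 3.05, 3.00, 0.382 and 0.286 CPM against 17.1 to 102 (median 44.3) CPM (log2 difference -4.64 ± 0.71 (SE), limma adjusted p = 0.0126). All 3 separated the groups completely. Foxa2 was lower but present, at 11, 10.5, 24.6 and 26.8 CPM against 42.3 to 88.5 (median 68.4) CPM (log2 difference -1.96 ± 0.36 (SE), limma adjusted p = 0.0226). Foxa3, at a low level in the Cdh1-high lines too, was also lower (log2 difference -2.51 ± 0.57 (SE), limma adjusted p = 0.0418). Gata4 went the other way without passing the threshold, at 20.7 to 44.8 against 7.64 to 34.6 CPM (log2 difference 0.93 ± 0.46 (SE), limma adjusted p = 0.253). Not every call survived the omission of 1 line, which ended Foxa2 (adjusted p up to 0.0764) without 52419, 52205 or 53371 and Foxa3 (adjusted p up to 0.193) without any 1 line but 53105.

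Some foregut factors were higher in 53369 than in 52419. Pdx1, the homeobox factor of pancreatic identity, was at 0, 0.154, 21.4 and 21.1 CPM against 18.8 to 71.1 (median 44.1) CPM (log2 difference -3.53 ± 1.27 (SE), limma adjusted p = 0.139). Onecut2 was at 2.23, 2.84, 54.0 and 46.1 CPM against 64.6 to 217 (median 185) CPM (log2 difference -3.73 ± 0.98 (SE), limma adjusted p = 0.064). Neither was called. Sox9, a factor of pancreatic ducts and progenitors, was at 171, 149, 118 and 151 CPM against 17.9 to 242 (median 119) CPM and overlapped (log2 difference 0.52 ± 0.68 (SE), limma adjusted p = 0.67). Sox2 was at 212, 125, 36.2 and 31.9 CPM against 1.52 to 18.9 (median 11.3) CPM (log2 difference 3.20 ± 1.00 (SE), limma adjusted p = 0.0976), above every Cdh1-high library without being called. Isl1, a LIM homeobox factor of islets and foregut mesenchyme, was the 1 member called higher, at 2.75, 1.92, 12.2 and 9.43 CPM against 0 to 0.297 (median 0) CPM (log2 difference 3.40 ± 0.60 (SE), limma adjusted p = 0.0191). Isl1 passed the filter through the Cdh1-low lines only, so its direction was set by the filter. Hnf4g and Sox17 had no read in the Cdh1-low group and were at least 10.0-fold and 9.60-fold higher in the Cdh1-high mean, with a floor of 3 reads per library; neither was called (log2 difference -2.01 ± 0.76 (SE), limma adjusted p = 0.152, and for Sox17 a log2 difference of -2.01 (adjusted p = 0.208)). Leaving out single lines ended Isl1 (adjusted p up to 0.065) without 52205 or 53371.

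Genes used to define the classical PDAC subtype were lower for 7 of 17 tested, against 6.14% over all genes. The median was -3.87, or -2.57 over all 24 in the table, and -4.50 with 3 genes without reads in the Cdh1-low group at their bound. Among the tested members, 9 reached 1 CPM in Cdh1-high lines only. The lower count ran from 5 (without 52205 or 53371) to 11 (without 53105). Cldn18, a gastric claudin, was at 2.23, 0.845, 0.918 and 1.57 CPM against 189 to 780.0 (median 500.2) CPM (log2 difference -7.94 ± 0.47 (SE), limma adjusted p = 0.000733). Lgals4, an intestinal galectin, was at 0.223, 0.307, 0.459 and 0.929 CPM against 47.1 to 411 (median 168) CPM (log2 difference -7.51 ± 0.56 (SE), limma adjusted p = 0.00157). Both were low in 52419 and 53369 alike. Slc40a1, the iron exporter ferroportin, was at 1.34, 1.31, 0.765 and 1.64 CPM against 19.3 to 63.7 (median 34.6) CPM (log2 difference -4.50 ± 0.36 (SE), limma adjusted p = 0.00184), and Tspan8, a tetraspanin, at 20.1, 8.45, 70.8 and 57.0 CPM against 329 to 649.9 (median 395) CPM (log2 difference -3.87 ± 0.57 (SE), limma adjusted p = 0.0114). Plac8 was at 0.818, 0.231, 83.2 and 113 CPM against 168 to 948 (median 777) CPM (log2 difference -5.95 ± 1.63 (SE), limma adjusted p = 0.0711). It was higher in 53369 than in 52419. Tff1, a gastric trefoil peptide, had 1 read in the Cdh1-low group against 1.78 to 49.0 CPM and just missed the threshold (log2 difference -4.42 ± 1.08 (SE), limma adjusted p = 0.0512). Each call named here held whichever 1 line was left out.

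Basal-like subtype genes were called in both directions. Of 11 tested, 1 was called higher and 3 lower, against 2.67% and 6.14% over all genes. The median was -1.61, or -0.51 over all 19 in the table, and -2.33 with 1 gene without reads at its bound. Of the members tested, 1 reached 1 CPM in Cdh1-high lines only. Cst6, which encodes cystatin M, was the 1 called higher, at 32.3, 22.3, 36.9 and 27.6 CPM against 0.538 to 4.75 (median 1.72) CPM (log2 difference 3.68 ± 0.49 (SE), limma adjusted p = 0.00847). Tns4, given above, Scel and Anxa8 were called lower: Scel, of the cornified envelope, was at 0, 0, 0.918 and 1.36 CPM against 8.25 to 40.2 (median 30.9) CPM (log2 difference -4.84 ± 0.60 (SE), limma adjusted p = 0.00686), and Anxa8 at 14.2 to 45.7 against 53 to 241 CPM (log2 difference -2.33 ± 0.49 (SE), limma adjusted p = 0.0348). Sprr1a, another cornified envelope protein, was at 3.94, 4.07, 102 and 178 CPM against 159 to 1933 (median 979) CPM (log2 difference -4.87 ± 1.43 (SE), limma adjusted p = 0.0852). Those called lower ran from 2 (without 52419, 52205 or 53371) to 5 (without 53105), and the number higher was 1 in each fit without 1 line. Among these calls, leaving out 1 line ended Anxa8 (adjusted p up to 0.185) without 52419, 53369, 52205 or 53371.

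Mucins and gastric-type genes were lower for 5 of 14 tested (median -2.28, or -1.71 over all 20 in the table; -2.58 with 2 genes at their bound), and single lines moved that count from 1 (without 52419) to 8 (without 53105), with 3 without 53369, 2 without 52205, 3 without 52424 and 2 without 53371. In the tested set, 11 reached 1 CPM in Cdh1-high lines only. Over all genes, 6.14% were called lower. Vil1, the microvillus protein villin, was at 0, 0.0768, 0.0765 and 0.286 CPM against 37.3 to 248 (median 54.3) CPM (log2 difference -6.80 ± 0.55 (SE), limma adjusted p = 0.00188). Cdhr2 and Cdhr5, the protocadherins of the brush border, had 3 reads and 1 read in the Cdh1-low group and were at 3.24 to 134 and 3.47 to 32.2 CPM in the Cdh1-high libraries (log2 difference -6.01 ± 1.05 (SE), limma adjusted p = 0.0193, and -4.19 with an adjusted p of 0.0102). Vil1, Cdhr2 and Cdhr5 were thus read in all Cdh1-high libraries and next to absent from the Cdh1-low ones. Muc1, a membrane mucin, was at 1.49, 0.307, 1.61 and 0.929 CPM against 6.82 to 321 (median 139.9) CPM (log2 difference -5.78 ± 1.23 (SE), limma adjusted p = 0.035). Aqp5, a water channel, was at 17.2, 16.4, 189 and 232 CPM against 79.5 to 366 (median 204) CPM and overlapped (log2 difference -1.68 ± 0.95 (SE), limma adjusted p = 0.316). In fits without 1 line, the calls lost were Cdhr2 (adjusted p up to 0.108) without 52419, 53369, 52205 or 53371, Cdhr5 (adjusted p up to 0.0589) without 52419 and Muc1 (adjusted p up to 0.166) without any 1 line but 53105.

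**Figure D4:**
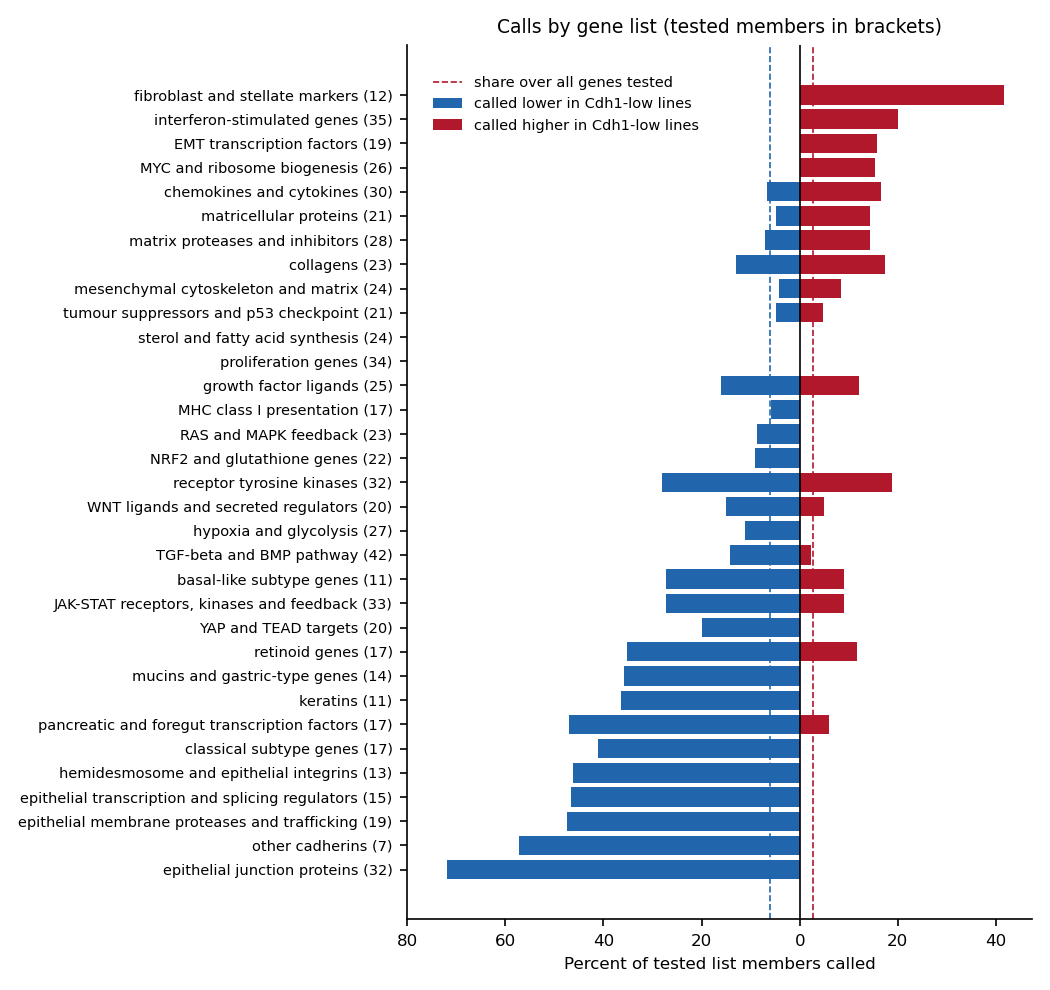
For each gene list with 7 or more tested members, the percent of members called higher (red, to the right) and lower (blue, to the left) in the Cdh1-low lines; dashed lines mark the shares over all 13394 genes tested, 2.67% and 6.14%. Junction proteins have the longest bar to the left, with 23 of 32 members, and fibroblast and stellate markers the longest to the right, with 5 of 12.

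Receptor tyrosine kinases were called in both directions, with 6 of 32 tested higher and 9 lower (2.67% and 6.14% over all genes). The median log2 difference was -0.57, or -0.28 over all 44 in the table. Of those tested, 5 reached 1 CPM in Cdh1-high lines only. The number higher ran from 4 (without 52419 or 53371) to 6 (without 53369 or 53105), and the number lower from 2 (without 52419) to 9 (without 53105), with 5 without 53369, 5 without 52205, 5 without 52424 and 4 without 53371. Ddr2, the collagen receptor of mesenchymal cells, was at 281, 288, 538 and 471 CPM against 0.359 to 8.96 (median 1.79) CPM (log2 difference 7.29 ± 0.69 (SE), limma adjusted p = 0.00283). The pattern of Ddr2 was thus opposite to that of its epithelial relative Ddr1. Fgfr1, a fibroblast growth factor receptor, was at 509, 413, 388 and 338 CPM against 11 to 62.2 (median 19.8) CPM (log2 difference 4.04 ± 0.49 (SE), limma adjusted p = 0.00628). Pdgfra and Pdgfrb, the receptors of platelet-derived growth factor, were at 67, 39.1, 159.9 and 83.5 CPM against 3.8 to 13.7 (median 8.56) CPM (log2 difference 3.11 ± 0.43 (SE), limma adjusted p = 0.00932) and at 52.5, 53.6, 106 and 113 CPM against 0.169 to 18.5 (median 0.576) CPM (log2 difference 5.26 ± 1.19 (SE), limma adjusted p = 0.0416). The highest Cdh1-high level of Pdgfrb belonged to 53105. Epha4 was at 6.17, 11.2, 2.07 and 8.14 CPM against 56.6 to 152 (median 89.4) CPM (log2 difference -3.81 ± 0.36 (SE), limma adjusted p = 0.00283), and Flt4, a VEGF receptor, at 1.26, 0.768, 0.306 and 1.86 CPM against 12.5 to 77.1 (median 43.8) CPM (log2 difference -4.67 ± 0.60 (SE), limma adjusted p = 0.00725). Erbb3, a partner of EGFR and ERBB2, was at 0.595, 0.538, 2.37 and 1.14 CPM against 10.5 to 95.1 (median 43.5) CPM (log2 difference -4.55 ± 0.68 (SE), limma adjusted p = 0.0116). Igf1r and Ryk were not called, at log2 differences of 0.27 (adjusted p = 0.637) and 0.39 (adjusted p = 0.23). With 1 line omitted, the threshold was no longer passed by Pdgfrb (adjusted p up to 0.145) without any 1 line but 53105 and Erbb3 (adjusted p up to 0.0783) without 52419.

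Growth factor ligands showed 3 of 25 tested higher and 4 lower, against 2.67% and 6.14% over all genes (median -0.19, or -0.18 over all 35 in the table). Among those tested, 3 reached 1 CPM in Cdh1-high lines only. The number higher ran from 1 (without 53371) to 4 (without 53105), and the number lower from 2 (without 53369 or 53371) to 5 (without 53105). Fgf1, the acidic fibroblast growth factor, was at 0.446, 0.307, 0 and 0.143 CPM against 11 to 42.5 (median 22.9) CPM (log2 difference -5.06 ± 0.29 (SE), limma adjusted p = 0.000733). Tgfa, a ligand of EGFR, was at 7.51, 11.4, 4.44 and 8.14 CPM against 48.8 to 108 (median 69.8) CPM (log2 difference -3.16 ± 0.28 (SE), limma adjusted p = 0.00226). Both were lower in each Cdh1-low library than in any other. Vegfd, a ligand of the VEGF family, was higher, at 4.61 to 10.6 against 0.448 to 1.10 CPM (log2 difference 2.58 ± 0.40 (SE), limma adjusted p = 0.0133). Areg, another EGFR ligand, overlapped (log2 difference -1.01 ± 0.67 (SE), limma adjusted p = 0.391). Omitting 1 line at a time ended Vegfd (adjusted p up to 0.0523) without 53369.

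In the TGF-beta and BMP pathway 1 of 42 tested members was called higher and 6 lower, against 2.67% and 6.14% over all genes (median -0.51, or -0.37 over all 45 in the table). The share higher was near that over all genes. Among the tested members, 1 reached 1 CPM in Cdh1-high lines only. None of the 7 kept its call in every fit without 1 line. The number lower ran from 0 (without 52419) to 5 (without 53105), with 2 without 53369, 2 without 52205, 1 without 52424 and 1 without 53371, and the number higher from 0 (without 52419, 52205, 52424 or 53371) to 4 (without 53105). Among receptors, Tgfbr2 was at 152, 174, 162 and 143 CPM against 212 to 391 (median 279) CPM (log2 difference -0.84 ± 0.20 (SE), limma adjusted p = 0.0479) and Acvr1b at 38.6, 26.7, 22 and 19.7 CPM against 49.7 to 111 (median 87.1) CPM (log2 difference -1.61 ± 0.33 (SE), limma adjusted p = 0.0318). Tgfbr3, the co-receptor betaglycan, named after its values were seen, was at 94.2, 47.0, 96.8 and 51.0 CPM against 1.88 to 39.4 (median 5.03) CPM and just missed the threshold (log2 difference 3.17 ± 0.80 (SE), limma adjusted p = 0.0564). Smad4, the shared signal transducer, was present in all libraries, at 69.5 to 83.2 against 95.1 to 142 CPM (log2 difference -0.58 ± 0.18 (SE), limma adjusted p = 0.0937), and Smad3 at 118 to 173 against 202 to 355 CPM (log2 difference -0.70 ± 0.19 (SE), limma adjusted p = 0.0703). Neither Smad gene was called, although the groups did not overlap. Pmepa1, a target of the pathway, was at 17.2, 31.2, 38.2 and 84.9 CPM against 113 to 342 (median 253) CPM (log2 difference -2.67 ± 0.41 (SE), limma adjusted p = 0.0126), and Id2 at 9.18 to 15.2 against 24.7 to 141 CPM (log2 difference -2.74 ± 0.60 (SE), limma adjusted p = 0.0381). The ligand Gdf15 was at 0.520 to 1.99 against 3.18 to 21.5 CPM (log2 difference -2.85 ± 0.64 (SE), limma adjusted p = 0.0405). Not every call survived the omission of 1 line, which ended Tgfbr2 (adjusted p up to 0.152) whichever line was left out; Acvr1b (adjusted p up to 0.117) without 52419, 53369, 52424 or 53371; Pmepa1 (adjusted p up to 0.0579) without 52419; Id2 (adjusted p up to 0.152) and Gdf15 (adjusted p up to 0.191) without any 1 line but 53105.

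WNT ligands and secreted regulators were called for 1 higher and 3 lower of 20 tested, against 2.67% and 6.14% over all genes (median -0.41, or 0.08 over all 33 in the table, which turns the sign). The share higher was near that over all genes. Of the members tested, 1 reached 1 CPM in Cdh1-high lines only. Calls lower ran from 1 (without 52419, 52205 or 53371) to 3 (without 53369 or 53105), and the number higher from 0 (without 52419) to 2 (without 53105). Notum, a WNT-inactivating enzyme, was higher, at 21.0, 10.7, 7.73 and 8.21 CPM against 0.717 to 3.08 (median 1.33) CPM (log2 difference 2.58 ± 0.42 (SE), limma adjusted p = 0.0145). Rnf43, which removes WNT receptors from the surface, was lower, at 0.446, 0.154, 2.75 and 2.71 CPM against 9.61 to 43.8 (median 20.4) CPM (log2 difference -3.67 ± 0.67 (SE), limma adjusted p = 0.0222), as were Lgr6 (log2 difference -1.55 ± 0.26 (SE), limma adjusted p = 0.0172) and Wnt4 (log2 difference -2.32 ± 0.50 (SE), limma adjusted p = 0.0372). Dkk2, a WNT antagonist, was at 375, 126, 477 and 172 CPM against 0.509 to 96.2 (median 6.52) CPM (log2 difference 4.99 ± 1.42 (SE), limma adjusted p = 0.0782), with its highest Cdh1-high values in 53105. Leaving out single lines ended Notum (adjusted p up to 0.0868) without 52419; Rnf43 (adjusted p up to 0.0997) without 52419 or 53371; Lgr6 (adjusted p up to 0.101) without 52419 or 52205; Wnt4 (adjusted p up to 0.112) without 52419, 52205, 52424 or 53371.

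Retinoid genes were lower for 6 and higher for 2 of 17 tested (median -0.47, or -0.18 over all 20 in the table), and 4 and 1 of these kept the call in all fits without 1 line. In the tested set, 1 reached 1 CPM in Cdh1-high lines only and 1 reached 1 CPM in Cdh1-low lines only. Over all genes, 6.14% were called lower and 2.67% higher. The lower count ran from 4 (without 52205, 52424 or 53371) to 7 (without 53369), and the number higher from 1 (without 53369 or 53371) to 2 (without 52419, 52205, 52424 or 53105). Crabp1, a cytoplasmic carrier of retinoic acid, was at 124, 24.4, 606 and 124 CPM against 0.0593 to 0.682 (median 0.177) CPM (log2 difference 7.38 ± 0.62 (SE), limma adjusted p = 0.00204). In both Cdh1-low lines the parental library had more Crabp1 than the Cre library. Rdh10, which starts the synthesis of retinoic acid from retinol, was at 32.0, 36.7, 62.3 and 73.1 CPM against 286 to 559 (median 409) CPM (log2 difference -3.05 ± 0.31 (SE), limma adjusted p = 0.00372). Dhrs3, which reverses that step, was at 3.64, 2.23, 4.05 and 6.21 CPM against 57.9 to 145 (median 74.6) CPM (log2 difference -4.22 ± 0.35 (SE), limma adjusted p = 0.00198), and Stra6, the retinol uptake receptor, at 0.595, 1.31, 3.21 and 2.93 CPM against 23 to 67.9 (median 38.4) CPM (log2 difference -4.09 ± 0.45 (SE), limma adjusted p = 0.00455). All 3 were lower without overlap. The nuclear receptor genes Rxra and Rarg were not called, at 0.09 (adjusted p = 0.84) and 0.61 (adjusted p = 0.0962) on the log2 scale. Each call named here held whichever 1 line was left out.

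Targets of YAP and TEAD were lower for 4 of 20 tested and higher for none, against 6.14% and 2.67% over all genes (median -0.38). Without 1 line the counts lower ran from 0 (without 53371) to 6 (without 53105), with 1 without 52419, 1 without 52205 and 2 without 52424, and the number higher was 1 without 53371 and 0 in the others. Foxf2 was at 12.5 to 19.3 against 34.1 to 84.6 CPM (log2 difference -1.47 ± 0.23 (SE), limma adjusted p = 0.0137), Wwc1, which encodes the Hippo scaffold KIBRA, at 52.5 to 114 against 151 to 254 CPM (log2 difference -1.29 ± 0.23 (SE), limma adjusted p = 0.0211), and F3, tissue factor, at 24.7 to 34.0 against 60.3 to 380.1 CPM (log2 difference -2.37 ± 0.49 (SE), limma adjusted p = 0.0316). Ankrd1, a common readout of YAP, overlapped, at 39.5, 97.0, 307 and 401 CPM against 219 to 1188 (median 619.7) CPM (log2 difference -1.86 ± 0.76 (SE), limma adjusted p = 0.179). Among these calls, leaving out 1 line ended Foxf2 (adjusted p up to 0.0546) without 53371, Wwc1 (adjusted p up to 0.0809) without 52419, 52205, 52424 or 53371 and F3 (adjusted p up to 0.158) without any 1 line but 53105.

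Receptors, kinases and feedback genes of JAK-STAT signalling were lower for 9 and higher for 3 of 33 tested (median -0.32). Over all genes, 6.14% were called lower and 2.67% higher. Of those tested, 1 reached 1 CPM in Cdh1-high lines only. Those called lower ran from 2 (without 53371) to 11 (without 53105), with 4 without 52419, 3 without 52205 and 5 without 52424, and the number higher from 0 (without 52419, 52205, 52424 or 53371) to 4 (without 53105). Il22ra1, the interleukin 22 receptor of epithelial cells, was at 1.04, 0.845, 0.841 and 1.07 CPM against 17 to 61.3 (median 42.3) CPM (log2 difference -4.67 ± 0.30 (SE), limma adjusted p = 0.00103). Il22ra1 passed the filter through the Cdh1-high lines only, so its direction was set by the filter. Il4ra was at 48.4, 24, 56.3 and 60.6 CPM against 116 to 248 (median 158) CPM (log2 difference -1.86 ± 0.25 (SE), limma adjusted p = 0.00844). These 2 kept their call in all fits without 1 line. Ifnlr1, the interferon lambda receptor, was at 2.30 to 4.59 against 9.77 to 24.8 CPM (log2 difference -2.01 ± 0.33 (SE), limma adjusted p = 0.0158), and Jak3 at 2.84 to 12.3 against 14.8 to 48.0 CPM (log2 difference -2.19 ± 0.39 (SE), limma adjusted p = 0.0203). Jak1 overlapped (log2 difference -0.48 ± 0.19 (SE), limma adjusted p = 0.17), and Il6st, which encodes gp130, was at 174 to 190.3 against 65.2 to 171 CPM (log2 difference 0.78 ± 0.32 (SE), limma adjusted p = 0.182). In fits without 1 line, the calls lost were Ifnlr1 (adjusted p up to 0.0845) without 52419 or 53371 and Jak3 (adjusted p up to 0.101) without 52419, 52205 or 53371.

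Interferon-stimulated genes were higher for 7 of 35 tested and lower for none, against 2.67% and 6.14% over all genes (median 1.29, or 0.89 over all 44 in the table). Among those tested, 7 reached 1 CPM in Cdh1-low lines only. Compared within parental libraries alone, 12 members were called higher, and within Cre libraries alone 3, a difference that was not itself tested. The mean log2 level of the 35 genes was 4.69 and 3.82 in the parental libraries of 52419 and 53369, 2.10 and 2.60 in their Cre libraries, and 1.84 to 2.49 in the 8 Cdh1-high libraries. Isg15, a ubiquitin-like protein, was at 24.4, 2.38, 15.9 and 6.36 CPM against 0.178 to 1.64 (median 0.543) CPM (log2 difference 3.13 ± 0.39 (SE), limma adjusted p = 0.00679). Gbp3, an interferon-induced GTPase, was at 29.8, 2.07, 6.20 and 2.93 CPM against 0.0593 to 0.398 (median 0.204) CPM (log2 difference 3.22 ± 0.41 (SE), limma adjusted p = 0.00711). Both genes were higher in every Cdh1-low library, and highest in the parental library of 52419. Oasl2 was at 46.5, 2.46, 10.2 and 2.29 CPM against 0.0727 to 1.58 (median 0.464) CPM (log2 difference 3.03 ± 0.45 (SE), limma adjusted p = 0.0116), and Ifi44 at 24.2, 0.231, 8.41 and 0.50 CPM against 0 to 0.258 (median 0.0816) CPM (log2 difference 2.60 ± 0.39 (SE), limma adjusted p = 0.0114), where the 52419 Cre library overlapped with the Cdh1-high ones. Gbp3 and Ifi44 passed the filter through the Cdh1-low lines only, so their direction was set by the filter. Ifitm3 was at 316, 106, 431 and 208 CPM against 0.179 to 90.6 (median 6.19) CPM (log2 difference 5.43 ± 1.59 (SE), limma adjusted p = 0.0843). Irf1, an inducible transcription factor, did not follow (log2 difference 0.11 ± 0.17 (SE), limma adjusted p = 0.722). The number higher ran from 2 (without 52419) to 9 (without 53105), with 4 without 53371, and the number lower was 2 without 53105 and 0 in the others. With 1 line omitted, the threshold was no longer passed by Oasl2 (adjusted p up to 0.0643) and Ifi44 (adjusted p up to 0.0636) without 52419.

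Chemokines and cytokines were called higher for 5 and lower for 2 of 30 tested, against 2.67% and 6.14% over all genes (median -0.94, or -0.52 over all 35 in the table). The share lower was near that over all genes. Among the tested members, 6 reached 1 CPM in Cdh1-high lines only and 2 reached 1 CPM in Cdh1-low lines only. The number higher ran from 1 (without 52419) to 6 (without 53105), with 3 without 52424 and 2 without 53371, and the number lower from 0 (without 52419 or 52205) to 8 (without 53105), with 1 without 52424 and 1 without 53371. Csf1, the growth factor of macrophages, was at 393, 725, 379 and 389 CPM against 39.9 to 166 (median 72.6) CPM (log2 difference 2.55 ± 0.38 (SE), limma adjusted p = 0.0112). Cxcl10 was at 26.4, 11.5, 17.7 and 14.4 CPM against 0.751 to 3.04 (median 2.20) CPM (log2 difference 2.83 ± 0.40 (SE), limma adjusted p = 0.00971), and Ccl5 at 3.79, 6.30, 37.3 and 14.6 CPM against 0 to 0.626 (median 0.323) CPM (log2 difference 3.86 ± 0.63 (SE), limma adjusted p = 0.0152). These 3 attract or sustain macrophages and T cells and were higher in every Cdh1-low library. Cxcl5, an attractant of neutrophils, was lower, at 3.05, 2.15, 8.57 and 4.71 CPM against 26.5 to 435 (median 206) CPM (log2 difference -4.82 ± 0.82 (SE), limma adjusted p = 0.0176). Cxcl12 was at 62.1, 136, 471 and 546 CPM against 0.689 to 110.1 (median 4.84) CPM (log2 difference 4.73 ± 1.61 (SE), limma adjusted p = 0.122); the 53105 libraries, at 96.3 and 110.1 CPM, overlapped with 52419. Of 17 tested genes of class I antigen presentation, H2-T23 alone was called, a share near that over all genes, lower at 4.07 to 10.6 against 28.7 to 65.1 CPM (log2 difference -2.37 ± 0.35 (SE), limma adjusted p = 0.0111); reads of near-identical H2 genes may be shared among them. B2m, the common light chain, was at 733, 532, 298 and 261 CPM against 137 to 310.3 (median 209) CPM (log2 difference 1.04 ± 0.37 (SE), limma adjusted p = 0.139). Omitting 1 line at a time ended Csf1 (adjusted p up to 0.0764), Cxcl10 (adjusted p up to 0.0614) and H2-T23 (adjusted p up to 0.0673) without 52419, Ccl5 (adjusted p up to 0.0552) without 53371 and Cxcl5 (adjusted p up to 0.116) without 52419 or 52205.

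No proliferation gene was called, although all 34 estimates were above 0 (median 0.86). The shares over all genes tested were 2.67% called higher and 6.14% called lower. At an unadjusted p under 0.05, 19 of the 34 were higher, against 1440 of all 13394 genes tested. Of the 34, edgeR called 1 and DESeq2 15, against 316 and 938 of all genes tested that they called higher. Mki67 was at 381, 467, 161 and 164 CPM against 25.8 to 249 (median 196) CPM (log2 difference 0.85 ± 0.48 (SE), limma adjusted p = 0.312), and Ccna2, cyclin A2, at 264, 354, 206 and 225 CPM against 20.3 to 163 (median 135) CPM (log2 difference 1.32 ± 0.36 (SE), limma adjusted p = 0.0698). The parental library of 53371 set the low end of both ranges, with Mki67 at 25.8 CPM against 249 in its Cre library. The mean log2 level of the list in that library was 4.58, against 5.98 to 6.73 in the other Cdh1-high libraries and 6.75 to 7.54 in the Cdh1-low ones. Its part in the difference between the groups was not tested beyond leaving out the line. No member was called without 53371, 52419, 52205 or 52424, 3 were called higher without 53105 and 4 without 53369.

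Genes of ribosome biogenesis were higher for 4 of 26 tested and lower for none, against 2.67% and 6.14% over all genes (median 0.48). Of the members tested, 1 reached 1 CPM in Cdh1-high lines only. Without 1 line the counts ran from 0 (without 52419, 52205, 52424 or 53371) to 4 (without 53105), with 2 without 53369. Dkc1, the pseudouridine synthase dyskerin, was at 164, 198, 168 and 182 CPM against 82.8 to 125 (median 104) CPM (log2 difference 0.75 ± 0.14 (SE), limma adjusted p = 0.022), and Nop2 at 309 to 418 against 156 to 264 CPM (log2 difference 0.85 ± 0.17 (SE), limma adjusted p = 0.0283). Myc itself overlapped (log2 difference 0.22 ± 0.37 (SE), limma adjusted p = 0.75). Of 27 hypoxia and glycolysis genes, 3 were lower, against 6.14% over all genes. Among them was the lactate exporter Slc16a3 (log2 difference -2.27 ± 0.47 (SE), limma adjusted p = 0.0335). Of 22 NRF2 and glutathione genes 2 were lower, a share near that over all genes. They were Ugdh (log2 difference -1.65 ± 0.23 (SE), limma adjusted p = 0.0089) and Gsr (log2 difference -1.24 ± 0.26 (SE), limma adjusted p = 0.0328). For hypoxia the number lower ran from 0 (without 52205, 52424 or 53371) to 6 (without 53105), with 1 without 52419. For NRF2 it ran from 0 (without 52419) to 7 (without 53105), with 1 without 52205 and 1 without 53371, and the number higher was 1 without 53369 and 0 in the others. Of the tested NRF2 and glutathione genes, 4 reached 1 CPM in Cdh1-high lines only. Among hypoxia genes 1 did so, and 1 among the RAS and MAPK feedback genes given below. None of 24 sterol and fatty acid synthesis genes was called. At an unadjusted p under 0.05 there were 3 of the 24, against 3493 of all 13394 genes tested. Of 21 tumour suppressor and p53 checkpoint genes, Mtap was higher (log2 difference 0.78 ± 0.18 (SE), limma adjusted p = 0.0462) and Tgfbr2 lower, as above. These shares were near the 2.67% and 6.14% over all genes. Cdkn2a, at 480.3 to 1085 against 319 to 637 CPM, and Trp53, at 244 to 327 against 158 to 267 CPM, were not called (log2 differences of 0.65 (adjusted p = 0.249) and 0.46 (adjusted p = 0.2)). Of 23 RAS and MAPK feedback genes 2 were lower, a share near the 6.14% over all genes: Rasgrp3, a RAS exchange factor, at 1.11, 1.08, 1.07 and 1.29 CPM against 24.9 to 103 (median 56.4) CPM (log2 difference -5.04 ± 0.37 (SE), limma adjusted p = 0.00152), and Phlda1 (log2 difference -1.07 ± 0.26 (SE), limma adjusted p = 0.0499); the number lower ran from 1 (without 52419, 52205, 52424 or 53371) to 2 (without 53369 or 53105), and the number higher was 2 without 53369 and 1 without 53105 and 0 in the others. The tumour suppressor calls ran from 0 (without 52419, 53369, 52205, 52424 or 53371) to 2 (without 53105) higher, with none lower in any fit without 1 line. Not every call survived the omission of 1 line, which ended Dkc1 (adjusted p up to 0.0847), Slc16a3 (adjusted p up to 0.115) and Gsr (adjusted p up to 0.145) without 52419, 52205, 52424 or 53371, Nop2 (adjusted p up to 0.107), Mtap (adjusted p up to 0.139) and Phlda1 (adjusted p up to 0.206) without any 1 line but 53105 and Ugdh (adjusted p up to 0.0579) without 52419.

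Markers of other cell types that a tumour-derived culture could hold were examined as lists. Fibroblast and stellate markers were higher for 5 of 12 tested and lower for none, against 2.67% and 6.14% over all genes (median 3.43, or 1.65 over all 19 in the table). Of those tested, 3 reached 1 CPM in Cdh1-low lines only. Without 1 line the counts ran from 2 (without 53371) to 7 (without 53105), with 3 without 53369, 3 without 52205 and 3 without 52424. Their summed level was 353 to 2428 CPM in the Cdh1-low and 52.9 to 179 CPM in the Cdh1-high libraries. Pdpn, podoplanin, was at 14, 5.92, 20.7 and 19.1 CPM against 0 to 0.344 (median 0.116) CPM (log2 difference 4.48 ± 0.42 (SE), limma adjusted p = 0.00283), and Cd34 at 158, 134, 108 and 79.4 CPM against 4.33 to 36.5 (median 9.80) CPM (log2 difference 3.36 ± 0.56 (SE), limma adjusted p = 0.0157). Dcn, decorin, one of the most abundant fibroblast products, was at 2.30, 1.31, 3.44 and 1.21 CPM against 0 to 0.227 (median 0.0769) CPM (log2 difference 2.05 ± 0.40 (SE), limma adjusted p = 0.0267). By their mean in the Cdh1-low lines the most abundant members tested were Col1a2 and Col3a1, both high in 53369 and given above with the other collagens, and neither was called. Among the members below the level needed for the test, Fap was at 0 to 0.520 CPM, Pi16 at 0 to 1.26 CPM, Mfap5 at 0 to 0.223 CPM and Thy1 at 0 to 3.98 CPM. In bulk RNA a small number of cells of another type and a low level per cell cannot be told apart. Leaving out single lines ended Cd34 (adjusted p up to 0.107) without 52419 or 53371 and Dcn (adjusted p up to 0.0911) without any 1 line but 53105.

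Defining markers of leukocytes and endothelium were near 0 in all libraries: Ptprc was at 0.149 to 0.231 CPM in the Cdh1-low and 0 to 1.02 CPM in the Cdh1-high group, and Cdh5 at 0 to 0.0765 and 0 to 0.845 CPM. The summed leukocyte list was at 23.7 to 41.7 against 131 to 558 CPM, and most of that was Cd14 (log2 difference -2.78 ± 0.44 (SE), limma adjusted p = 0.0136). The endothelial list was at 116 to 311 against 25.4 to 103 CPM, mostly Flt1 outside line 53371, at 296, 206, 126 and 107 CPM against 13.8 to 91.6 (median 66.9) CPM (log2 difference 1.90 ± 0.70 (SE), limma adjusted p = 0.144); Kdr, the main VEGF receptor, was the member called lower, with 3 reads in the Cdh1-low group (log2 difference -2.42 ± 0.57 (SE), limma adjusted p = 0.0476). Smooth muscle and pericyte markers summed to 17.7 to 36.9 against 5.09 to 16.5 CPM, with none of 4 called. Of 4 mesothelial genes tested Cav1 was called, and Msln, mesothelin, was at 71.6, 53.2, 287 and 247 CPM against 317 to 1443 (median 726) CPM (log2 difference -2.39 ± 0.69 (SE), limma adjusted p = 0.0806). Wt1 and Upk3b had no read in the Cdh1-low group. Schwann, endocrine, acinar and skeletal muscle lists had 3, 1, 1 and 0 tested genes, of which Erbb3 alone was called. The leukocyte and endothelial lists had 3 tested genes each, with Cd14 and Kdr the only ones called. The shares over all genes tested were 2.67% called higher and 6.14% called lower. None of 33 HOX genes in the table passed the filter on low values. Xist was high in 52419, 52205 and 53371, Ddx3y and Uty in 52424 and 53105, and all 3 were at or near 0 in 53369, so these sex-linked genes did not divide the lines by Cdh1 group. Among these calls, leaving out 1 line ended Cd14 (adjusted p up to 0.0903) without 52419 and Kdr (adjusted p up to 0.187) without any 1 line but 52205.

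The 2 Cdh1-low lines were not alike throughout. Of the genes with the widest gaps between them, Rhox5, an X-linked homeobox gene, was at 840.1 and 876 CPM in 52419 and at 0 and 0.0714 CPM in 53369. Bgn, the matrix proteoglycan biglycan, was at 902, 1231, 4.21 and 4.93 CPM, and Xist at 533, 277, 0.0765 and 0.0714 CPM, both high in 52419. Renbp, Akr1c18, Gpr149, Aim2 and Crmp1 completed the 8 genes higher in 52419. In the other direction Krt8 and Col1a2, given above, Cd81, a tetraspanin, at 0.149, 0.154, 161 and 140.2 CPM, and Ccnd2, cyclin D2, at 7.36, 11.9, 852 and 861 CPM were high in 53369. Myh10, a nonmuscle myosin, was at 6.17, 5.84, 478 and 493 CPM and Ror2, a WNT receptor kinase, at 0, 0, 51.7 and 48.2 CPM. Lrig3 and Colec12 completed the 8 higher in 53369. For Krt8, Cd81, Ccnd2 and Myh10 the 52419 libraries lay below all Cdh1-high ones. These genes were chosen for their gap, with 2 libraries a line, and carry no test between the 2 lines.

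**Figure D5:**
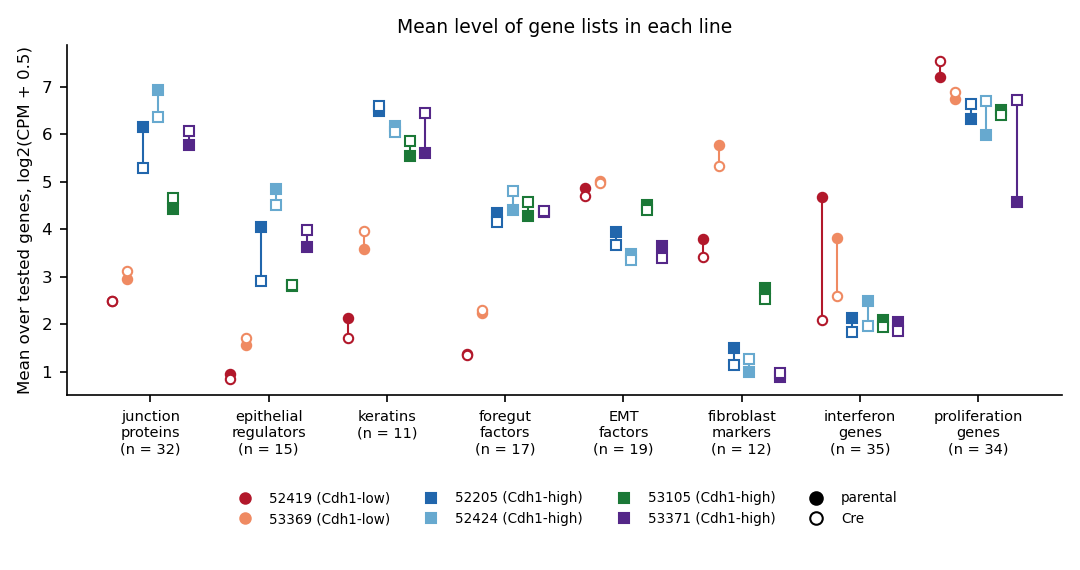
Mean of log2(CPM + 0.5) over the tested genes of 8 lists, for the parental (filled) and the Cre library (open) of each line, joined by a vertical line. Circles are Cdh1-low and squares Cdh1-high lines. Line 53105 (green) lies between the groups for junction proteins, epithelial regulators, EMT factors and fibroblast markers but with the Cdh1-high lines for foregut factors; the interferon genes lie highest in the parental libraries of the 2 Cdh1-low lines, and the parental library of 53371 is low for proliferation genes.

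Line 53105 was intermediate for part of the difference. When it was left out of the fit, 1740 genes were called between the 2 Cdh1-low and the 3 remaining Cdh1-high lines, and 53105 was nearer the Cdh1-high mean for 67.5% and nearer the Cdh1-low mean for 32.5% of them. Each other Cdh1-high line, treated in the same way, was nearer the Cdh1-high mean for 95.2% to 99.1% of the genes called without it. Line 52419 was nearer the remaining Cdh1-low line for 79.0% of its genes, and 53369 for 57.2%. Split by direction, 52419 was nearer the Cdh1-high mean for 38.1% of the genes called higher and 14.3% of those called lower. For 53369 these shares were 52.3% and 38.9%, so that over the genes called higher it was nearer the Cdh1-high mean more often than not. The mean log2 level of the 32 junction genes was 4.54 in 53105, 5.73 to 6.64 in the other Cdh1-high lines, and 2.49 and 3.05 in 52419 and 53369. That of the 19 EMT factors was 4.45 in 53105, 3.42 to 3.8 in the other Cdh1-high lines, and 4.78 and 4.99 in the Cdh1-low ones. For foregut factors, 53105 at 4.43 lay among the Cdh1-high lines at 4.25 to 4.61. Line 53105 thus combined high Cdh1, Hnf4a and Gata6 with low Epcam and raised Prrx1. Its values are shown as a description, since the line was singled out after its values were seen.

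Taking parental and Cre libraries separately gave similar counts. Among parental libraries 243 genes were called higher and 615 lower, and among Cre libraries 249 and 652. Of the genes called higher, 153 were called in both, which is 63.0% of the parental and 61.4% of the Cre calls. Of those called lower, 461 were called in both, or 75.0% and 70.7%. The Cre libraries did not enter the choice of the groups, but they come from the same 6 lines and are no independent sample of lines. Hnf4a, Tns4 and Lsr differed between the groups within the Cre libraries by -8.45, -8.63 and -6.09 on the log2 scale.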

How the data were processed

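RNA-seq of 12 libraries from 6 lines was analysed, with poly(A) selection and no stated strand, so antisense overlaps cannot be told apart. Per the submitters' processing notes, FastQC 0.11.9, featureCounts and edgeR were used with builds GRCm38 and mm10; an aligner is not given in the sources used here. Signal as deposited, a table of scaled values for 20432 genes, gave whole reads for 100% of values within 0.01, and the total was 11.48 to 18.04 M reads per library. A deposited log2 table held 10903 genes. Symbols came from RefSeq for 19448 IDs and from GENCODE for 11, with 973 unnamed.

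Deposited values were taken as CPM, with library totals of 950322 to 1032682 CPM. Genes at 1 CPM or more in at least 2 lines (13394, of which 275 had no symbol) were compared as log2(CPM + 0.5), averaged over the 2 libraries of a line, with limma 3.58.1 (trend, R 4.3.3) and Benjamini-Hochberg adjustment; adjusted p under 0.05 was called. Cdh1 chose the lines and was left out. Count tests on the recovered reads used edgeR 4.0.16 and DESeq2 1.42.0 as alternatives. The fit was tested on simulated data. Counting intervals and floors cover counting error only. Members and the 43 gene lists were chosen with earlier results of these data known. Named genes were Cdh1, the 4 candidate markers examined with it and the 12 leading genes in each direction. Also named were up to 4 smallest-p and 3 most abundant uncalled members per list, all members of 4 lists, and other cell types' markers. Reads of near-identical gene families may be split by the counting. Of 20 alternatives, the effect is given in the closing section. Some genes of the lists are counted but not reported here by name.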

Additional observations from a re-analysis of the deposited data

Results flagged for a closer look

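Among the 4 Cdh1-high lines, 25 of 229 named genes examined had 1 line mean whose gap to the nearest other line exceeded Dixon's 95% critical value. Chance flags about 1 in 20 such groups. Values are line means in CPM, with the range of the other 3 Cdh1-high lines after each. Line 53105 was the highest for Cd34 at 29.1 (7.92 to 9.39), Col1a2 at 3.61 (0 to 0.0727), Foxc2 at 0.922 (0.209 to 0.239), Isl1 at 0.148 (0 in each) and Mfap5 at 0.0569 (0 in each). Line 53105 was the highest also for Pcbp4 at 46.1 (37.2 to 37.8), Pdgfrb at 15.6 (0.360 to 0.681), Sparcl1 at 0.0297 (0 in each), Thy1 at 0.921 (0.0896 to 0.129) and Tmem119 at 0.574 (0 to 0.0423). Line 53105 was the highest also for Twist1 at 86.4 (35.9 to 38.9). Line 53105 was the lowest for Ankrd1 at 226 (679.9 to 801), Id2 at 28.3 (109.6 to 128), Itga2 at 78.4 (250.5 to 267) and Plac8 at 245 (718 to 898). Line 52205 was the highest for Krt8 at 2761 (1508 to 1625). Line 52205 was the lowest for Cxcl10 at 0.958 (2.31 to 2.46). Line 52424 was the highest for Cdh17 at 507 (93.3 to 104), Ifnlr1 at 21.3 (12.8 to 13.5), Pdpn at 0.209 (0.113 to 0.118) and Vil1 at 181 (46.6 to 52.4). Line 53371 was the highest for Cd14 at 398 (140.3 to 154), Dhrs3 at 130.1 (65.9 to 72.1) and Stra6 at 60.2 (31.0 to 34.7). Line 53371 was the lowest for Pdgfra at 5.17 (9.73 to 11). Of the 25, 15 concerned 53105; for 3 of these, Isl1, Mfap5 and Sparcl1, the other 3 lines had no read, so that any value above 0 would exceed the critical value.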

How the results depend on the processing

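No paired analysis was possible because the 2 groups of lines share no line. At 358 higher and 822 lower, the counts moved by over 1.5 times under these settings: 604 and 1248 with the 12 libraries as separate values and the line as a random block, 938 and 1610 with DESeq2, 188 higher in the deposited log2 table, and 537 lower with no filter on low values. The range over the 6 fits without 1 line was 86 to 597 higher and 336 to 1143 lower. Of 131 called genes named, none changed direction in any of the 20 alternatives that held it (95 were in the deposited log2 table, 130 had a DESeq2 adjusted p and 129 passed a filter on the mean over lines); the calls lost ranged from 1 (DESeq2, or a pseudocount of 0.1) to 65 (without 52419), and 23 were lost with edgeR and 25 with no filter. The cause of these changes was not tested. Log2 differences of genes that were not called took the opposite sign as follows. In Cre libraries alone they were Dst -0.000, Fn1 0.061, Irf1 -0.041, Mmp14 0.18, Spp1 -0.14 and Zeb1 -0.065. With DESeq2 they were Fn1 0.31, Lrig3 0.28, Myh10 0.34, Ror2 0.44 and Xist 0.63. With edgeR they were Fn1 0.32, Lrig3 0.29, Myh10 0.35, Ror2 0.46 and Xist 0.62. In parental libraries alone they were Colec12 -0.061. With a pseudocount of 0.1 they were Colec12 -0.010. Ranges over the fits without 1 line that crossed 0 were Aim2 -4.70 to 1.08, Akr1c18 -0.81 to 6.64, Aqp5 -3.48 to 0.12, Ccnd2 -5.93 to 0.51, Cd81 -7.75 to 0.10, Cdh2 -0.042 to 1.43, Cdh6 -2.48 to 0.076, Chtf8 -0.006 to 0.35, Colec12 -3.13 to 3.42, Crmp1 -0.36 to 5.43, Dst -0.13 to 0.23, Fn1 -1.44 to 1.20, Klf4 -0.46 to 0.63, Lrig3 -3.65 to 2.76, Mmp14 -0.29 to 0.15, Myc -0.45 to 0.89, Myh10 -4.90 to 1.32, Prmt7 -0.14 to 0.60, Renbp -1.60 to 5.71, Rhox5 -1.69 to 8.96, Ror2 -4.54 to 2.11, Rxra -0.073 to 0.26, Sox9 -0.029 to 0.88, Spp1 -0.47 to 0.74, Xist -4.92 to 4.46 and Zeb1 -0.19 to 0.21. List medians whose sign differed between the tested members and all members in the table were -0.41 and 0.080 for WNT ligands and secreted regulators, 0.60 and -0.037 for acinar markers, -0.54 and 0.045 for endocrine and neuroendocrine markers and -1.79 and 0.064 for Schwann and neural crest markers. Depth limits what is shown of genes under about 3 reads per library, and 2 lines in a group limit every test.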
